A study of Rattus norvegicus with 24 samples.

Results

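Rats that went on taking methamphetamine (METH) although their lever presses were punished with footshocks (shock-resistant, SR) were compared with rats that pressed for saline (control, CT), across the genes of the nucleus accumbens. The arrays were chosen by title, those named shock resistant without the word yoked and those named control, which gave 6 SR and 6 CT arrays, 12 of the 24 arrays of the series. All animals were male Sprague-Dawley rats and each array held total RNA of 1 rat. SR rats had long daily access to intravenous METH, then sessions in which part of the reinforced presses brought a shock of rising strength, and the tissue was taken after about a month without drug. CT rats were trained with saline and received no shocks. The SR label was given afterwards, from each rat's own presses under punishment, so the drug, the shocks, the seeking tests during withdrawal and any trait that preceded them cannot be told apart in SR against CT. Shock-sensitive rats (SS, 6 arrays), which cut their METH intake under the same shocks, and saline rats that received the shocks of an SR partner (YSR, 3 arrays) are used only to set values beside those of SR.

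The accumbens consists mostly of GABAergic medium spiny neurons, which receive dopamine and glutamate input and take part in reward and motivated behaviour. Brain tissue covers the cost of ion pumping and transmitter release mainly with glucose, which glycolysis in the cytosol splits to pyruvate and which the citric acid cycle and the respiratory chain in mitochondria oxidise further. Neurons also depend on clathrin and coatomer coats that form vesicles, on chaperones and the proteasome, and on nuclear RNA-binding proteins that package and splice transcripts.

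Each value is a log2 signal of a transcript cluster, the set of array probes assigned to 1 transcribed region. A cluster was tested when its mean over the CT arrays exceeded that of the bioB hybridisation control in the same arrays (9.45), which kept 9044 of 68842 clusters, 13.1%. Of these, 3528 genes had a cluster with a single symbol that lay on the chromosome of that gene or had no assigned chromosome (unplaced). A cluster or gene is called when the limma p, adjusted by Benjamini and Hochberg over all 9044, is under 0.05. The median signal of all clusters ran from 4.97 to 5.22 in CT and from 4.87 to 5.06 in SR, with CT replicate 3 the highest and SR replicate 5 the lowest. Clusters with a mean signal between 4 and 6 had a median SR minus CT difference of -0.10, those between 12 and 14 a median of 0.09, and those over 14 a median of -0.03, so the difference varied with signal strength. The part of this array scale in the results below was not tested, and counts without those 2 arrays are given beside the counts of named genes. Of the 14 markers of medium spiny neurons, 12 lay above the 95th percentile of the negative control probes in all 6 arrays of each group, and their median difference was 0.04.

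Named genes that passed the test were all higher in SR. Among the 9044 clusters 180 were called (1.99%), 157 of them higher (1.74%) and 23 lower (0.254%), and with 1 cluster per named gene 98 of 3528 were called higher (2.78%) and 0 lower. At an unadjusted limma p under 0.05, 907 named genes were higher (25.7%) and 34 were lower (0.964%), and the median difference over the 3528 genes was 0.11. Of the 9044 tested clusters 15.9% were higher and 5.38% lower at that p. The split of named genes depended on the array scale. It was 612 higher and 117 lower with quantile normalization, 559 and 106 with equal array medians, 451 and 90 (median 0.05) without SR replicate 5 and CT replicate 3, and 232 and 147 (median 0.01) with the array median as a covariate. Counted over every cluster of a named gene, 99 genes were called. Their folds ran from 1.16 to 1.7 with a median of 1.28, and in 53 of the 99 genes each SR array lay above each CT array. Over all named genes this held for 84 (2.38%), and 3 genes had each SR array below each CT array (0.085%). None of the 23 lower clusters carried a single symbol on the chromosome of its gene, and 13 of them were noncoding. Without SR replicate 3 limma called 0 clusters, and 725 named genes were higher at an unadjusted p under 0.05.

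Glycolysis had the highest median of the gene lists in the fit as described. The microtubule and neurofilament list ranked above it with array weights (0.33 against 0.31) and with the array median as a covariate (0.16 against 0.14), and the aminoacyl-tRNA synthetases did without SR replicate 3 (0.26 against 0.25). Of the 16 glycolysis members 15 were tested, all 15 were higher at an unadjusted p under 0.05, and 6 were called (Hk1, Pfkm, Tpi1, Pgam1, Eno2 and Pkm). The median difference was 0.30, against 0.11 over all named genes, of which 25.7% were higher at that p. The 15 genes cover the pathway from hexokinase to lactate dehydrogenase, and their differences ran from 0.19 in Gapdh and Gpi to 0.53 in Pgam1. More cells of a type and more RNA per cell cannot be told apart in such tissue samples.

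Hk1 encodes hexokinase, which phosphorylates glucose at the entry of the pathway. Its log2 signal was 12.04 in the lowest, 12.28 in the median and 12.39 in the highest CT array and 12.30, 12.72 and 12.83 in the SR arrays, a difference of 0.41 ± 0.09 (SE, n = 6 and 6, limma adjusted p = 0.0295). Only SR replicate 1 fell within the CT range. Pfkm, the muscle type subunit of phosphofructokinase, the committed step, ran from 10.88 over 11.04 to 11.16 in CT and from 11.21 over 11.43 to 11.67 in SR, with a difference of 0.40 ± 0.08 (adjusted p = 0.0202 by limma). The groups did not overlap. Pkm, pyruvate kinase, which makes pyruvate and ATP in the last step, ran from 13.44 over 13.54 to 13.62 in CT and from 13.68 over 13.78 to 13.98 in SR, with a difference of 0.26 ± 0.06 (limma adjusted p = 0.0342), and its groups did not overlap either.

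Pgam1, phosphoglycerate mutase, had the largest difference of the list. Its signal ran from 12.93 over 13.21 to 13.64 in CT and from 13.31 over 13.89 to 14.08 in SR, 0.53 ± 0.13 higher, or 1.44-fold (limma adjusted p = 0.0381), with 4 of 6 SR arrays above all CT arrays. Eno2, the neuronal enolase, was 1.37-fold higher (0.45 ± 0.11, limma adjusted p = 0.0381), and its 2 tested clusters gave 0.43 and 0.45. Tpi1, triosephosphate isomerase, was 0.35 higher (limma adjusted p = 0.0446). Gapdh, an enzyme of the same pathway whose transcript often serves as a reference in PCR, differed by 0.19 with an unadjusted p of 0.0073 and an adjusted limma p of 0.0923. Aldoc, the aldolase of astrocytes, and Ldhb, a lactate dehydrogenase subunit, differed by 0.30 and 0.22 and were not called.

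**Figure D1:**
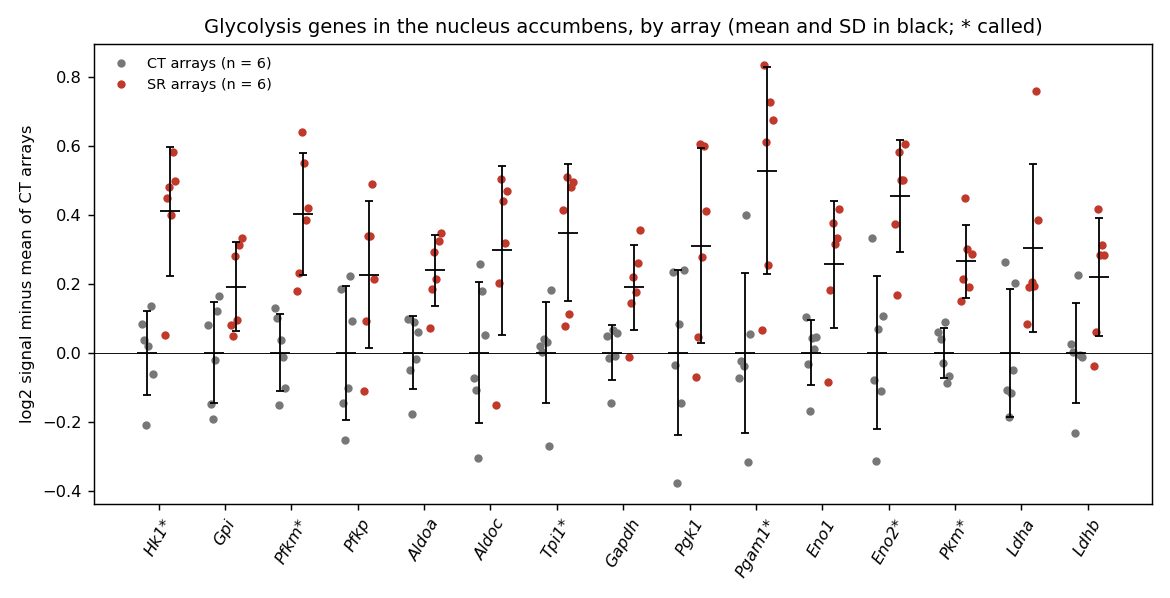
Log2 signal of the 15 tested glycolysis genes on each array, minus the mean of the 6 CT arrays (vertical axis), with CT arrays in grey, SR arrays in red and the mean with its SD in black, and a star after called genes. In Pfkm and Pkm each of the 6 red points lies above each of the 6 grey points, and in the other genes 2 to 5 of them do.

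The glycolytic level was not even among the SR rats. Taken as the median over the 15 genes of the signal minus the CT mean, it was 0.06, 0.18, 0.45, 0.28, 0.39 and 0.41 in SR replicates 1 to 6 and 0.08, -0.03, -0.19, 0.07, -0.01 and 0.06 in CT replicates 1 to 6. SR replicate 1 lay inside the CT range and the other 5 SR arrays above it, and CT replicate 3 was the lowest array. With SR replicate 5 and CT replicate 3 both left out, 9 of the 15 genes stayed higher at an unadjusted p under 0.05 and their median was 0.21, beside 451 of the 3528 named genes. The 6 calls of the list became 13 without SR replicate 1 and 0 without CT replicate 3, SR replicate 3 or SR replicate 6. With the array median as a covariate, the median was 0.14 and 6 of 15 genes had such a p, against 232 of 3528 named genes.

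The promoters of the glycolysis genes are shown for the called members with the most matches to the motifs searched, Pkm and Pgam1, chosen after their matches were seen. They come from RefSeq (GRCr8) and span 250 bases before to 50 after the start, with matches to any of 8 motifs in capitals on either strand, so a reverse match appears as the reverse complement (ATTGG for CCAAT).
Pkm promoter, chr8:68953385-68953684, plus strand: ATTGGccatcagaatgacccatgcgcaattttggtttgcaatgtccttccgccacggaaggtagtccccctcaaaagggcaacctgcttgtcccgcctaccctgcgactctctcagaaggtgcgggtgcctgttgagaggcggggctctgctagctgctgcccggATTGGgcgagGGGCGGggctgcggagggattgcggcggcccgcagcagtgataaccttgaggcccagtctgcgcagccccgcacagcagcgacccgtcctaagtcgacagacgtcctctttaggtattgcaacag
Pgam1 promoter, chr1:250672902-250673201, plus strand: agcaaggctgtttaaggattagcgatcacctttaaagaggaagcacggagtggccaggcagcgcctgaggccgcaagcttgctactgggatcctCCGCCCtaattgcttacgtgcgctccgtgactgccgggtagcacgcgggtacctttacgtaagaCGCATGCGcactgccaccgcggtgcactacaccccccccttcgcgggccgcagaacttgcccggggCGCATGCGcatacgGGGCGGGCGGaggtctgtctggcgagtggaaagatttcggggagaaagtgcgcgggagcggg
The capitals in Pkm are 2 matches to CCAAT, the letters bound by NF-Y, and 1 to GGGCGG, those of Sp1 and KLF factors. Those in Pgam1 are 3 matches to GGGCGG, of which 2 overlap, and 4 to GCATGCG, the letters of NRF1, which overlap on both strands at 2 places. No motif is contained in another. Of the 15 tested glycolysis genes 14 had a promoter in the table, of the 99 called genes 84 and of the 3528 named genes 2854. GGGCGG was found in 71.4% of the promoters of called genes, 64.3% of those of glycolysis genes and 67.8% of those of all named genes. CCAAT was found in 39.3%, 28.6% and 35.9%, and GCATGCG in 10.7%, 7.14% and 7.32%. The other motifs searched were CCGGAAG of ETS factors (19.0% of promoters of called genes against 15.6% of all named genes), TGACGTC of CREB (8.33% against 6.20%), ATGGCG of YY1 (23.8% against 19.6%), the TATA box TATAAA (2.38% against 5.43%) and the E-box CACGTG (10.7% against 8.83%). These shares are descriptions of letters in a window and were not tested.

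The oxidative steps that follow glycolysis showed smaller medians. In the list of pyruvate dehydrogenase and the citric acid cycle 8 of 12 tested genes were higher at an unadjusted p under 0.05, with a median difference of 0.20, and 2 were called. Among all named genes 25.7% were higher at that p and 2.78% were called. Ogdh, a subunit of the oxoglutarate dehydrogenase complex, ran from 12.09 over 12.17 to 12.25 in CT and from 12.42 over 12.51 to 12.53 in SR, 0.33 ± 0.06 higher (limma adjusted p = 0.0171). The groups did not overlap, and both were narrow (SD 0.07 and 0.04). Cs, citrate synthase, which joins acetyl-CoA to oxaloacetate, was 0.47 ± 0.11 higher (adjusted p = 0.0295 by limma), with 5 of 6 SR arrays above all CT arrays. In CT only 3 of 6 arrays exceeded the negative control limit given above for Cs.

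Along the respiratory chain 8 of 15 tested subunits of complex I were higher at an unadjusted p under 0.05, with a median difference of 0.22 and 1 call. Over all named genes 25.7% were higher at that p and 2.78% were called. Of complexes II to IV 7 of 12 genes had such a p and none was called, with Sdha, the flavoprotein of succinate dehydrogenase, at 0.32. Of the ATP synthase 7 of 10 did, and Atp5f1b, its catalytic beta subunit, was called, from 14.27 over 14.41 to 14.51 in CT and from 14.50 over 14.73 to 14.80 in SR (0.29 ± 0.07, limma adjusted p = 0.0308). Mitochondrial carriers, import proteins and chaperones had 12 of 19 such genes and no call, with Vdac1, the outer membrane channel, at 0.30 and Slc25a22, a glutamate carrier, at 0.42. The medians of these lists lay between 0.18 and 0.22. Over the alternatives run, the genes higher at such a p numbered 4 to 10 in complex I and 2 to 9 in complexes II to IV. They numbered 1 to 8 in the ATP synthase and 1 to 15 in the carrier list, beside 6.58% to 32.7% of all named genes. Of the mitochondrial ribosome only 3 of 33 genes passed the filter, and 1 of them, Mrpl17, had such a p.

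All 27 tested genes of vesicle coats and adaptors had a positive difference, 20 were higher at an unadjusted p under 0.05, their median was 0.23, and Cltb, Clta and Ap3d1 were called. Among all named genes 25.7% were higher at that p and 2.78% were called. Cltb and Clta encode the clathrin light chains. Cltb ran from 10.10 over 10.32 to 10.51 in CT and from 10.54 over 10.71 to 10.76 in SR, 0.36 ± 0.09 higher without overlap (limma adjusted p = 0.0381). Clta differed by 0.22 ± 0.05 (limma adjusted p = 0.0381), also without overlap, at a signal that exceeded the 95th percentile of the negative controls in only 1 of 6 CT arrays. Ap3d1, the delta subunit of the AP-3 adaptor that sorts cargo to lysosomes and synaptic vesicles, differed by 0.30 ± 0.08 (limma adjusted p = 0.0459).

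Clathrin heavy chain (Cltc, 0.24), the AP-2 subunits Ap2m1, Ap2b1, Ap2a1 and Ap2a2 (0.17 to 0.26), the coatomer subunits Copa, Copg1, Copb2 and Arcn1 (0.26 to 0.35), dynamin 1 (Dnm1, 0.21), which cuts vesicles off the membrane, and the GTPases Arf1 and Arf3 (0.27 and 0.31) were not called. With SR replicate 5 and CT replicate 3 left out 8 of the 27 genes had an unadjusted p under 0.05, and with the array median as a covariate 6 did.

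**Figure D2:**
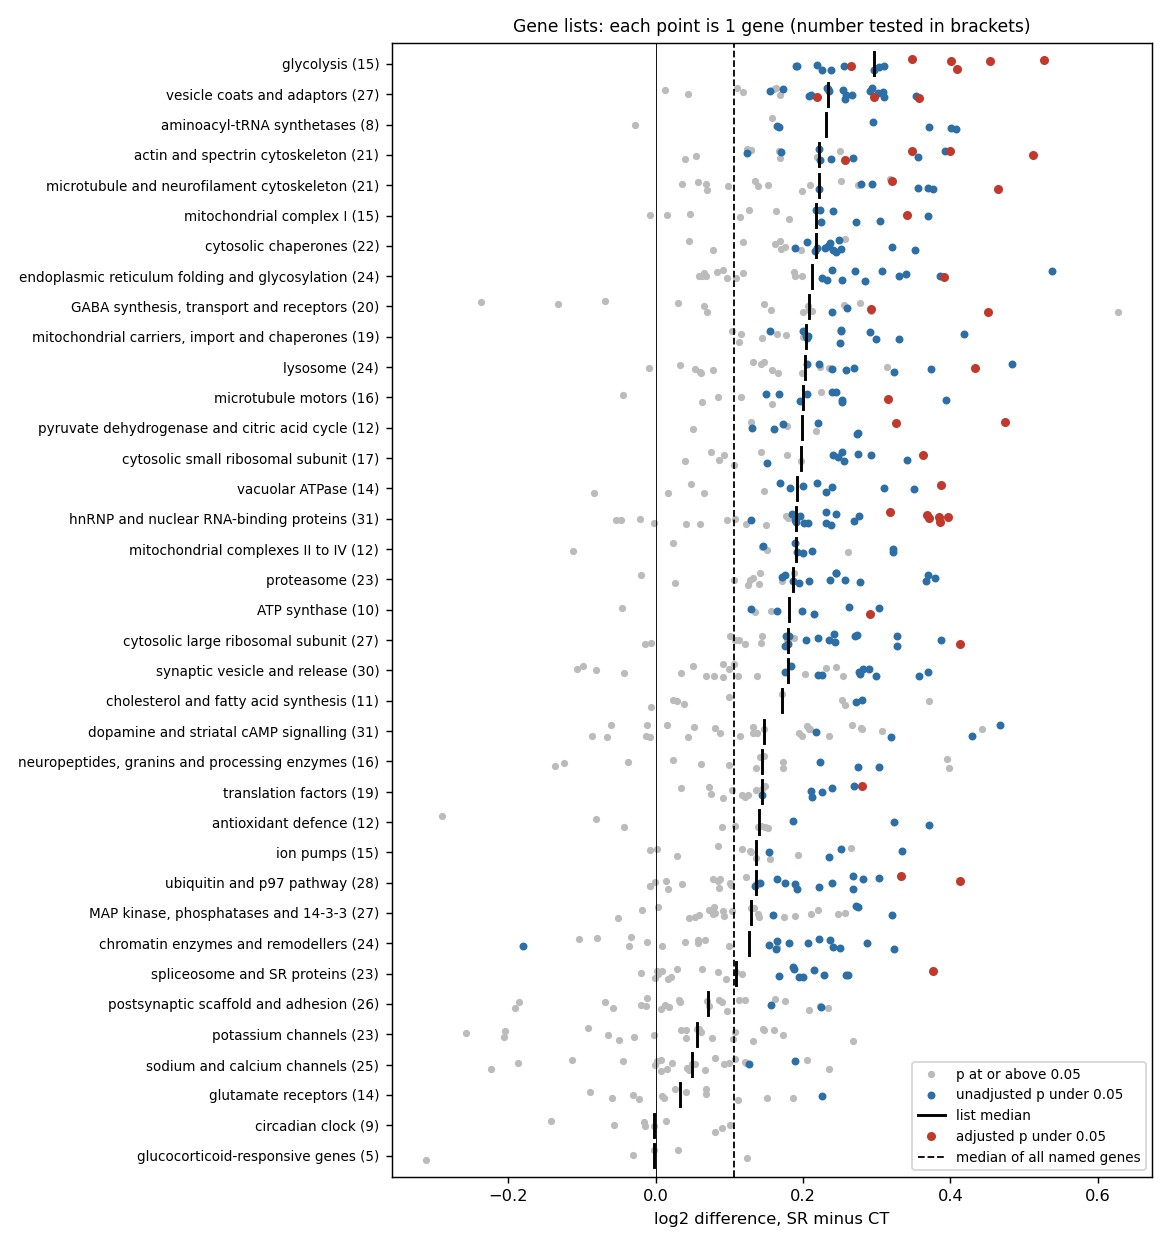
Log2 difference, SR minus CT (horizontal axis), of each tested gene in the lists with 5 or more tested members, with the list median as a black bar, called genes in red, other genes with an unadjusted p under 0.05 in blue and the median of all named genes as a dashed line at 0.11. Glycolysis lies at the top with all 15 points to the right of 0, while the medians of the glutamate receptor, ion channel, postsynaptic, clock and glucocorticoid-responsive lists lie left of the dashed line.

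RNA-binding proteins of the nucleus held the most calls together with glycolysis, 6 of 31 tested genes, and 19 of the 31 had an unadjusted p under 0.05, all higher, with a median difference of 0.19. Over all named genes 2.78% were called and 25.7% were higher at that p. Safb, a scaffold attachment factor, ran from 9.51 over 9.75 to 9.89 in CT and from 9.96 over 10.17 to 10.24 in SR (0.40 ± 0.07, limma adjusted p = 0.0159). Ncl, nucleolin, which acts in ribosome biogenesis, ran from 13.32 over 13.37 to 13.63 in CT and from 13.76 over 13.80 to 13.93 in SR (0.39 ± 0.07, limma adjusted p = 0.0159). In both genes the groups did not overlap. The highest CT signal of Safb lay below the 95th percentile of the negative controls of every CT array but replicate 1 (9.82).

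Hnrnpa3 and Hnrnpa1, which package pre-mRNA, and Nono, a paraspeckle protein, were called with differences of 0.38, 0.32 and 0.37. Many hnRNP genes have processed copies in the genome, which the probes may not separate. Of the spliceosome 10 of 23 genes were higher at an unadjusted p under 0.05, where 25.7% of all named genes were. The spliceosome median was 0.11, the same as over all named genes, and Prpf19, a ubiquitin ligase of the spliceosome, was called (0.38 ± 0.09, limma adjusted p = 0.0345). Chromatin enzymes had 11 of 24 genes higher and 1 lower at such a p and no call, among them Hdac11 (0.24), a histone deacetylase, and Kdm6a (-0.18), a histone demethylase encoded on the X chromosome.

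Each list of translation genes held 1 call or 0, where 2.78% of all named genes were called and 25.7% were higher at an unadjusted p under 0.05. Of the translation factors 7 of 19 genes had such a p. Of the large ribosomal subunit 15 of 27 genes were higher at an unadjusted p under 0.05 and Rpl6 was called, and of the small subunit 9 of 17 were and Rps9 was called. Rpl6 ran from 11.33 over 11.72 to 11.80 in CT and from 11.88 over 12.09 to 12.19 in SR, without overlap (0.41 ± 0.10, limma adjusted p = 0.0345). The 15 genes of the large subunit became 8 without CT replicate 3, SR replicate 3 or SR replicate 4, 9 without SR replicate 6 and 1 with the array median as a covariate. Eef1g, a subunit of elongation factor 1, was called (0.28 ± 0.07, limma adjusted p = 0.0381). Of 8 aminoacyl-tRNA synthetases, which charge tRNAs, 6 were higher at an unadjusted p under 0.05 with a median of 0.23 and none was called, with Sars1 at 0.41, Aars1 at 0.40 and Nars1 at 0.37. Metap2, which removes the first methionine of new proteins, was called (0.31 ± 0.06, limma adjusted p = 0.0179).

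Genes of protein folding and degradation included 2 of the 3 with the smallest p. Nsfl1c encodes p47, a cofactor of the ATPase p97 (Vcp) in membrane fusion, and ran from 10.57 over 10.70 to 10.83 in CT and from 11.05 over 11.13 to 11.19 in SR (0.41 ± 0.07, limma adjusted p = 0.0159). Ganab, the catalytic subunit of glucosidase II, which trims glycans in the endoplasmic reticulum, ran from 9.91 over 10.11 to 10.27 in CT and from 10.34 over 10.54 to 10.61 in SR (0.39 ± 0.07, limma adjusted p = 0.0159). Neither gene had overlapping groups, and Ganab lay above the 95th percentile of the negative controls in 2 of 6 CT arrays. Ubqln1, a ubiquilin that carries ubiquitinated proteins to the proteasome, was called at 0.33 ± 0.06 (limma adjusted p = 0.0159), and Vcp itself differed by 0.30 and was not called.

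Of the ubiquitin and p97 list 14 of 28 genes were higher at an unadjusted p under 0.05, of the endoplasmic reticulum list 12 of 24, of the cytosolic chaperones 13 of 22 and of the proteasome 13 of 23. The last 2 lists had no call. Over all named genes 25.7% were higher at that p and 2.78% were called. Over the alternatives run, the shares of these 4 lists ran from 14.3% to 57.1%, 12.5% to 62.5%, 13.6% to 81.8% and 13.0% to 73.9%. That of all named genes ran from 6.58% to 32.7%. Hsp90aa1 and Hsp90ab1, the cytosolic HSP90 forms, differed by 0.32 and 0.23, Cct7, a subunit of the chaperonin that folds actin and tubulin, by 0.25, and the proteasome subunits Psmd2 and Psmb5 by 0.38 and 0.37. Pomp, the assembly factor of the proteasome, was outside these lists and was called in the test over all clusters, with 3 tested clusters between 0.41 and 0.52. Sqstm1, the autophagy receptor p62, ran from 9.999 over 10.42 to 10.45 in CT and from 10.42 over 10.94 to 11.01 in SR (0.49 ± 0.10, limma adjusted p = 0.0245), with 5 of 6 SR arrays above all CT arrays.

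Lysosomal genes had 9 of 24 members higher at an unadjusted p under 0.05 (37.5%) and 1 call, where 25.7% and 2.78% of all named genes were. Psap, prosaposin, the precursor of activators of sphingolipid hydrolases, ran from 14.20 over 14.42 to 14.48 in CT and from 14.49 over 14.88 to 14.97 in SR (0.43 ± 0.08, limma adjusted p = 0.0159). The lowest SR array lay just above the highest CT array. Ctsd, a lysosomal protease, differed by 0.48 and was not called. Of the vacuolar ATPase, the proton pump that acidifies lysosomes and synaptic vesicles, 9 of 14 genes had such a p and Atp6ap1, an accessory subunit, was called (0.39 ± 0.10, limma adjusted p = 0.0381).

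In the cytoskeleton 12 of 21 actin and spectrin genes, 8 of 21 microtubule and neurofilament genes and 10 of 16 motor genes were higher at an unadjusted p under 0.05, with medians of 0.22, 0.22 and 0.20. Among all named genes 25.7% were higher at that p, with a median of 0.11, and 2.78% were called. Pfn2, the neuronal profilin that delivers actin monomers, ran from 13.98 over 14.34 to 14.59 in CT and from 14.47 over 14.86 to 15.22 in SR (0.51 ± 0.11, limma adjusted p = 0.0275), and 5 of 6 SR arrays lay above all CT arrays. A weaker tested cluster of Pfn2 differed by 0.31 and was not called (limma adjusted p = 0.08). Cfl1, cofilin, which severs actin filaments, was 0.26 ± 0.06 higher without overlap (limma adjusted p = 0.0295). Gap43, a growth cone protein (0.35), Add1, an adducin that links spectrin to actin (0.40), Tubb2a, a beta tubulin (0.46), Map4, a microtubule-binding protein (0.32), and Klc1, a kinesin light chain (0.32), were also called.

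Of 30 synaptic vesicle and release genes 11 were higher at an unadjusted p under 0.05 and none was called, with a median of 0.18 and Nsf, the ATPase that takes SNARE complexes apart, at 0.36. Of 20 GABA genes 4 had such a p, a share below the 25.7% of all named genes, and 2 were called. Gabbr1, the ligand-binding subunit of the GABA-B receptor, ran from 13.65 over 13.73 to 13.80 in CT and from 13.92 over 14.04 to 14.07 in SR (0.29 ± 0.06, limma adjusted p = 0.0245), without overlap. Abat, the GABA transaminase, which breaks GABA down, ran from 13.51 over 13.81 to 14.09 in CT and from 13.96 over 14.26 to 14.49 in SR (0.45 ± 0.11, limma adjusted p = 0.0381). Gad1, which makes GABA, differed by 0.26 and was not called.

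Ion channels, glutamate receptors and postsynaptic scaffold genes showed little difference. Of 23 potassium channel genes 0 and of 25 sodium and calcium channel genes 2 were higher at an unadjusted p under 0.05, of 14 glutamate receptor genes 1 (Grin1, the obligatory NMDA receptor subunit, 0.23) and of 26 postsynaptic scaffold and adhesion genes 2. Their medians were 0.06, 0.05, 0.03 and 0.07, below that of all named genes, and none was called or had an unadjusted p under 0.05 in the lower direction. Among 31 genes of dopamine and striatal cAMP signalling 4 had such a p, all higher (12.9%), a share below the 25.7% of all named genes. These 4 included Prkaca, Prkar1a and Prkar1b, subunits of protein kinase A (0.47, 0.43 and 0.32), which were not called. Drd1, the D1 dopamine receptor, differed by 0.11 with an unadjusted limma p of 0.669. The medians of these lists were not stable in direction, since with the array median as a covariate they were -0.06 for potassium channels, -0.07 for sodium and calcium channels, -0.06 for glutamate receptors, -0.04 for the postsynaptic list and -0.09 in place of 0.15 for the dopamine and cAMP list. With array weights they also lay below 0.

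Within each group these receptor and channel lists spread widely. The potassium channel level, computed as for glycolysis, ran from -0.14 to 0.21 in CT and from -0.10 to 0.28 in SR, and SR replicate 1, CT replicate 1 and CT replicate 6 were highest. The same 3 arrays had the highest medium spiny neuron marker level, at 0.69, 0.61 and 0.44. In the glycolysis list SR replicate 1 was the lowest SR array.

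**Figure D3:**
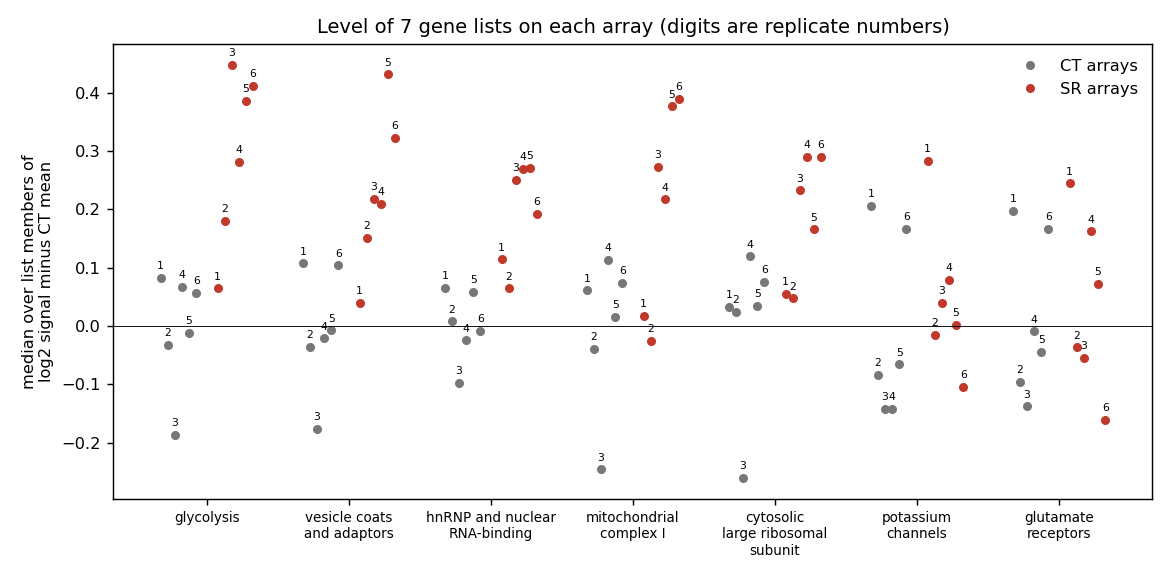
Level of 7 gene lists on each array, as the median over the list's genes of the log2 signal minus the CT mean (vertical axis), with CT arrays in grey, SR arrays in red and replicate numbers above the points. CT replicate 3 is lowest in the first 5 lists and SR replicates 1 and 2 lie nearest to CT there, while in potassium channels and glutamate receptors the groups mix.

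Several lists tied to acute or hormonal responses were near 0. None of 9 circadian clock genes, 5 glucocorticoid-responsive genes and 2 immediate early genes had an unadjusted p under 0.05, with medians of 0.00, 0.00 and -0.04, whose sign depended on which array was left out, and most members of these lists did not pass the signal filter. Homer1 and Egr1, the tested immediate early genes, differed by -0.07 and -0.02. Of 16 neuropeptide, granin and processing genes 3 were higher at such a p (18.8%), a share below the 25.7% of all named genes. They were Scg2, Pam and Scg5 (0.30, 0.27 and 0.22), which encode a granin, an amidating enzyme and a chaperone of prohormone convertase. Of the 16 differences 13 were positive and 3 negative, the lowest at -0.14 (Npy). None of the 16 genes was called.

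Some called genes stood outside the lists. Surf2, a gene of the surfeit cluster with a nucleolar protein, had the smallest p of all named genes and ran from 11.29 over 11.78 to 11.88 in CT and from 12.06 over 12.22 to 12.39 in SR (0.50 ± 0.09, limma adjusted p = 0.0159). The groups did not overlap, and CT replicate 3 lay apart below the other CT arrays. Caly, calcyon, a neuronal vesicular protein, was 0.46 ± 0.10 higher (limma adjusted p = 0.0287), without overlap. Oaz2, an antizyme that restrains polyamine synthesis, was 0.47 ± 0.11 higher (limma adjusted p = 0.0381), and Mettl7a, a methyltransferase of lipid droplets, 0.72 ± 0.17 (limma adjusted p = 0.0345), with 4 of 6 SR arrays above all CT arrays and 2 of 6 CT arrays above the 95th percentile of the negative controls. Entpd6, a nucleotidase below the signal filter, differed by 0.49 with an adjusted limma p of 0.0316 over all 68842 clusters, and its CT signal exceeded that percentile in 0 of 6 arrays.

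The lower side consisted mainly of noncoding clusters. The 1261 tested noncoding clusters had a median of -0.22, with 306 in the lower and 70 in the higher direction past an unadjusted p of 0.05, and the 4332 coding clusters a median of 0.11, with 81 and 1125. By the study's criterion of at least 1.7-fold with an unadjusted p under 0.05, 16 clusters were higher (0.177%) and 72 lower (0.796%) in the limma fit. The paper made pairwise comparisons with Affymetrix software and reports fewer transcripts for SR against CT at these limits. Of the named genes 2 met the criterion in the limma fit, Mir770 and Mir876. The array protocol measures transcripts of a cluster and does not separate a mature microRNA from its precursor.

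The microRNA sequences are printed from RefSeq (GRCr8) for the genes that met that criterion, with the seed (bases 2 to 8), which pairs with targets, in capitals, and for Mir876 as the hairpin.
rno-miR-770-5p: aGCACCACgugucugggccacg
rno-miR-770-3p: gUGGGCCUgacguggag
Mir876 hairpin: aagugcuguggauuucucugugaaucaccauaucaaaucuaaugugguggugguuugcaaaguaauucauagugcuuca
The seeds of the Mir770 arms differ from each other. The cluster of Mir770 spanned 1237 bases, longer than the hairpin of 76 bases (chr6:134298084-134298159, plus strand), so most of it lies in the surrounding transcript. It ran from 11.15 over 11.28 to 12.42 in CT and from 11.83 over 12.28 to 12.78 in SR (0.77 ± 0.19, limma adjusted p = 0.0381). CT replicate 5 lay within the SR range and apart from the other CT arrays, and 1 SR array lay above all CT arrays.

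Mir876 had a cluster of 79 bases, the length of its hairpin (chr5:56133376-56133454, minus strand). It ran from 11.38 over 11.77 to 12.59 in CT and from 10.06 over 10.90 to 11.67 in SR, a difference of -0.94 ± 0.28 that was not called (limma adjusted p = 0.0655), with 4 of 6 SR arrays below all CT arrays. Of 15 microRNA genes with a tested cluster 13 were in the RefSeq table, and 11 of the 15 had a cluster under 100 bases. All 11 had negative differences, 6 with an unadjusted p under 0.05 and 0 called by limma, among them Mir466c (-0.62) and Mir466b-2 (-0.59), which belong to a family of near-identical repeats that the probes may not separate, and Mir100 (-0.58), whose CT signal passed the 95th percentile of the negative controls in 1 of 6 arrays.

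Markers of other cell types were read over all 68842 clusters. These clusters had a median difference of -0.07, with 5.72% higher and 13.0% lower in SR past an unadjusted p of 0.05. Most of them lay under the signal filter. There the lean depended on the mean signal, with medians of -0.12 under 4 and -0.10 between 4 and 6. Clusters between 6 and 8 had a median of 0.01 and those between 8 and 10 a median of 0.06. Of the named genes above the filter 25.7% were higher at that p, with a median of 0.11, which is the nearer background for markers with a strong signal. All 13 measured oligodendrocyte markers had positive differences with a median of 0.25, and 7 had an unadjusted p under 0.05, among them Mag (0.65), Mbp (0.36), Mal (0.39) and Mobp (0.25), which encode myelin proteins. None was called, and the signals of Mag and Mbp exceeded the negative control limit in 0 of 6 CT arrays. The 13 markers had a median of 0.23 in SS minus CT as well, with 4 higher at such a p. In SR minus SS their median was 0.06 with 0 higher. Their summed linear signal ran from 96825 to 135254 in CT and from 109162 to 195748 in SR. Of 7 markers of oligodendrocyte precursors 3 were higher in SR than in CT at such a p (Gpr17, Pdgfra and Olig1), with a median of 0.19. The precursor median was 0.12 in SS minus CT and 0.06 in SR minus SS.

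The 9 blood markers had negative differences with a median of -0.24, and 2 had an unadjusted p under 0.05, one of them Hba-a2, alpha globin (-0.44). However, 7 of the 9 exceeded the negative control limit in no SR or CT array, and clusters with a mean signal under 6 in general leaned negative. Their summed signal ran from 307224 to 600560 in CT and from 196535 to 486224 in SR. Astrocyte markers had 2 of 14 higher at an unadjusted p under 0.05 (Glul and Aldoc, median 0.08), microglia markers 1 of 14 lower (Tyrobp, median 0.07) and endothelial markers 0 of 12. The 10 cortical neuron markers had negative differences with no such p, 7 of them exceeded the negative control limit in no SR or CT array, and Slc17a7, which loads glutamate into vesicles of cortical cells, was at -0.69 with an unadjusted limma p of 0.412. The part of these cell types in the gene list results was not tested.

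**Figure D4:**
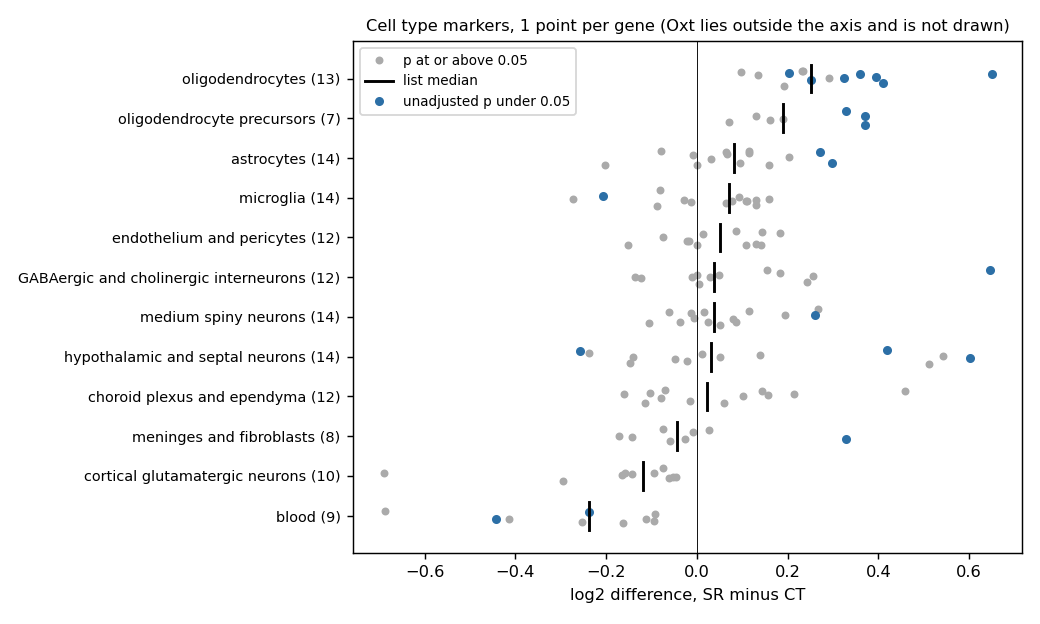
Log2 difference, SR minus CT (horizontal axis), of cell type markers over all clusters, 1 point per gene, with the list median as a black bar and unadjusted p under 0.05 in blue. All 13 oligodendrocyte points lie to the right of 0 and all 9 blood points to the left, while medium spiny neuron markers centre near 0.04. Oxt, at 2.89, lies outside the axis and is not drawn.

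The called genes were chosen by SR minus CT, so their values in the other groups are a description. The SS mean fell between the CT and SR means in 99 of the 99 called genes, with median differences of 0.19 for SS minus CT and 0.18 for SR minus SS, and 0.14 for YSR minus CT. These contrasts share arrays with SR against CT, so they are no separate evidence. In SR against SS no cluster was called, 521 had a higher (5.76%) and 612 a lower signal (6.77%) at an unadjusted limma p below 0.05, and 56 of the 99 called genes were higher at that p. Among the named genes 393 of 3528 were higher in SR than in SS (11.1%) and 45 lower (1.28%).

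In SR against SS 11 of 15 glycolysis genes were higher at an unadjusted p under 0.05, with the smallest p in Ldhb, Hk1 and Ldha (0.28, 0.26 and 0.27). Vesicle coats had 14 of 27 such genes, the proteasome 10 of 23 and the citric acid cycle list 8 of 12. The hnRNP list had 4 of 31 there and 12 of 31 in SS against CT, where 212 of 3528 named genes were higher (6.01%) and 28 lower (0.794%). In SS against CT limma called 0 clusters, and at an unadjusted p under 0.05 there were 540 with higher (5.97%) and 87 with lower signal (0.962%). Ncl differed by 0.32 in SS against CT and by 0.07 in SR against SS. In YSR against CT no glycolysis gene had an unadjusted p under 0.05, with a median of 0.10 over only 3 YSR arrays. An unexplained tag stands in the array titles of CT and SR and is absent from those of YSR, so a batch and the group cannot be told apart in YSR against CT. There 107 of 3528 named genes were higher (3.03%) and 11 lower (0.312%), and limma called 0 clusters, with 240 higher (2.65%) and 31 lower (0.343%) at that p.

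Oxytocin (Oxt), the peptide gene on which the study centred, lay below the signal filter. It ran from 5.35 over 5.90 to 7.79 in CT and from 7.28 over 8.45 to 12.51 in SR. The difference was 2.89 (two-sided exact permutation p = 0.0108, n = 6 and 6). The study picked out Oxt from these same arrays, so that p describes a gene already chosen and is no separate test. The limma p of Oxt adjusted over all clusters was 0.0697. Only 2 SR arrays and 0 CT arrays exceeded the 95th percentile of the negative controls. Of the 14 markers of hypothalamic and septal neurons 3 were higher at an unadjusted p under 0.05 (Oxt, Avp and Trh) and 1 was lower (Hcrt, -0.26). Over the 14 markers 8 differences were positive and 6 negative, with a median of 0.03. Avp, vasopressin, at 0.60, exceeded that percentile in no array of either group. The part of tissue from outside the accumbens was not tested. Of the other genes that were measured by PCR in the study, none was called, and Oxtr, Fmo2 and Pdk4 lay below the signal filter. By PCR in the accumbens the paper reports higher Oxt in SR than in CT, and small increases of Oxtr in all groups. It also reports small increases of Pdk4 in SR, no significant change of Cartpt and Fmo2, and higher Ptpro in YSR and SS than in controls. Oxtr, the oxytocin receptor, and Cartpt, a striatal neuropeptide, differed by 0.33 and 0.40, and Fmo2, a monooxygenase, Pdk4, a kinase that inactivates pyruvate dehydrogenase, and Ptpro, a receptor tyrosine phosphatase, by -0.26, -0.05 and -0.19. The signals of Oxtr, Fmo2 and Pdk4 exceeded that percentile in no SR or CT array.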

How the data were processed

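Total RNA of the nucleus accumbens was hybridised to Affymetrix Rat Transcriptome Array 1.0 chips, 1 per rat. The values deposited by the authors are log2 signals, 1 for each transcript cluster of a chip, and per the labels they came from Affymetrix Expression Console. The software version, the background correction, normalization, summarisation and genome build were not stated in these sources, and other choices there could move weak signals. A second deposited table holds bi-weight group averages on the log2 scale, which were only set against the array means, SDs, and the authors' fold changes and p-values, which were not used. Gene symbols and positions came from that table. How many arrays a group had limits the precision.

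Groups came from the array titles. All 24 arrays entered 1 fit of 5 group means with limma 3.58.1 (R 4.3.3, lmFit and eBayes, two-sided), with Benjamini-Hochberg adjustment over the 9044 tested clusters, and tables were made in Python 3.11.15. The RefSeq gene table of GRCr8 gave current symbols. Of the tested clusters 3747 had 1 symbol (3628 on the chromosome of that gene or unplaced), 66 had several and 5231 had none. The clusters that stood for Tpi1 and Eno2 in the lists were unplaced. Positions of the array files are not printed because their build is unknown. Lists used 1 tested cluster per gene. Markers and genes under the filter were read from the same fit over all 68842 clusters. The fit was tested on simulated data, and no pair of arrays held identical values. Genes were named by a rule, with up to 12 per direction by smallest p and by largest difference among called genes, 5 per direction past the study's criterion, per list the 4 members with the smallest p and the 2 with the highest signal, 8 per direction under the filter, and the PCR genes. Tpi1, Ldha, Ldhb, Hnrnpa1, Nono, Kdm6a, Mir100, Mir466c, Mir466b-2 and the vesicle coat genes that were not called, except Cltc and Arf3, were named after their values were seen. A few genes that the rule names are not reported here. The members and lists were chosen with earlier results of these data known. Alternatives were other filters, normalizations, moderation and array weights, only the SR and CT arrays, 1 probe per gene, a replicate block, each array left out, and others added after seeing the data.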

Additional observations from a re-analysis of the deposited data

Results flagged for a closer look

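Among 25 genes and both groups of 6 arrays, 5 single arrays lay far from the other arrays of their group by Dixon's test at the 95% level. Chance flags about 1 in 20 groups. In CT replicate 3 the log2 signal of Surf2 was 11.29, that of Psap 14.20, that of Sqstm1 9.999 and that of Caly 10.93, each the lowest of the CT arrays. In CT replicate 5 that of Mir770 was 12.42, the highest of the CT arrays. CT replicate 3 was also the CT or SR array with the highest median over all clusters (5.22), and the part of this array's scale in the 4 genes was not tested.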

How the results depend on the processing

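The count of 180 called clusters depended on single arrays. Without each array in turn it ran from 0 to 1196, at 181, 31, 17, 163, 109 and 65 when CT replicates 1 to 6 were left out and at 1196, 574, 0, 82, 22 and 18 when SR replicates 1 to 6 were. The count of 88 past the study's criterion ran from 45 to 205, at 53 when CT replicate 3 was left out and at 205, 162 and 45 when SR replicates 1, 2 and 5 were. The calls became 0 with only the SR and CT arrays in the fit, 63 with equal array medians, 1250 with array weights and 393 with 1 probe per gene, and the criterion count 154 without a filter and 2 with 1 probe per gene. Of alternatives chosen after seeing the data, leaving out SR replicate 5 and CT replicate 3 gave 0 calls and 19 clusters past the criterion, and the array median as a covariate 3 and 18. The 167 clusters with no overlap became 862 without a filter, of which 381 were higher and 481 lower. The split of calls into higher and lower was 157 to 23, against 155 to 77 with quantile normalization, 42 to 21 with equal array medians and 112 to 121 over all clusters. With the replicate number as a block 75 clusters were called, 70 of them among the 180. The numbers only name the rats, since deviations of same-numbered arrays correlated at -0.45 to 0.267, with 1 of 6 arrays closest to its own number. Over the alternatives run the glycolysis median stayed between 0.14 and 0.33, and between 6 and 15 of its genes were higher at an unadjusted p under 0.05, against 232 to 1154 of all named genes. For Oxt the difference ran from 2.24 to 3.29 without each array in turn. Surf2 was called under 19 of 23 alternatives, with an adjusted p between 0.0020 and 0.1623. The cause of these shifts was not tested. Signals near the negative controls limit what weak genes can show.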
